A study of Canis lupus familiaris with 16 samples.

Results

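The HOXD cluster is a run of homeobox genes on dog chromosome 36. It was taken as every methylation peak assigned to a HOXD gene, together with every peak between 19896185 and 20000326 (CanFam3.1), a stretch of 104142 bp that reaches 5 kb beyond the outermost HOXD transcription starts. The rule found 7 genes, HOXD13, HOXD12, HOXD10, HOXD9, HOXD8, HOXD3 and HOXD1, among 18147 genes with an assigned peak. It found 29 peaks among the 145240 of the series, of which 25 carried the symbol of a HOXD gene and 4 that of LOC102157027, a long non-coding RNA gene on the opposite strand. Other genes of the cluster were not analysed here.

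The peaks came from MethylCap-seq, a method that pulls methylated DNA out of sheared genomic DNA and sequences it; a pile of reads marks a methylated stretch. The lymphoma group was 5 dogs aged 5 to 13 years with high-grade B-cell lymphoma, a fast-growing tumour of antibody-forming lymphocytes. They were a schnauzer, a dachshund, a golden retriever, a mixed breed and a dog of unstated breed, with stage III to V disease, and their DNA came from fine-needle aspirates of lymph nodes. The healthy group was 3 dogs aged 2 to 7 years, a mixed breed, a golden retriever and a standard poodle, and their DNA came from mononuclear cells of the blood. No treatment is stated for either group. Each dog gave 2 libraries, L and M-H, which made 16; they are called fractions below, and no source used here says what the letters stand for. The peaks were deposited as 4 lists, 1 for each group and label, pooled over its dogs. A list therefore has no spread between dogs, a peak may come from some of them only, and no test between groups was possible. Disease, tissue and age cannot be told apart in this design, nor can a larger share of methylated cells and more methylation per cell.

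HOX genes encode transcription factors that give cells their position along the body axis and the limbs. They lie in clusters whose gene order follows the order in which they are used: HOXD1 and HOXD3, at the 3' end, act early and towards the head, and HOXD13, at the 5' end, acts last, in digits and the urogenital region. The CpG islands of HOX clusters are free of DNA methylation in most normal cells and are held silent by Polycomb complexes where the genes are not used, and the same islands are often methylated in cancers. In blood, HOX genes of the A and B clusters are active in progenitors, while the D cluster is largely silent.

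The 4 lists held 45623 peaks (lymphoma L), 44811 (healthy L), 34939 (lymphoma M-H) and 19867 (healthy M-H). The read depth is unknown. No deposited fold enrichment, the authors' ratio of reads in a peak to background, was below 6, so a place without a peak may still hold methylated DNA. The 2 most frequent fold values of a list differed by 0.246 in lymphoma L, 0.409 in healthy L, 0.275 in lymphoma M-H and 0.742 in healthy M-H. This gap was larger in both healthy lists, but most folds did not follow it. Whole steps of that size held 25.3% of lymphoma L, 36.5% of healthy L, 16.7% of lymphoma M-H and 4.42% of healthy M-H folds. The part of this gap in the differences below was not tested. Promoter peaks of B-cell genes, which are active in B cells, were absent from both lymphoma lists (0 of 7 measured markers in each), while 2 of the 7 had one in healthy L and 0 in healthy M-H. Among markers of other cells, lymphoma lists had promoter peaks at 1 of 7 T-cell, 2 of 6 monocyte and granulocyte and, in L and M-H, 3 and 4 of 7 stroma and endothelium genes. Healthy lists had them, in L and M-H, at 1 and 0 of the T-cell, 0 and 0 of the monocyte and granulocyte, and 3 and 2 of the stroma and endothelium genes. For scale, within L lymphoma alone had promoter peaks at 16.0% of 18111 genes, healthy cells alone at 3.87% and both groups at 15.4%. Within M-H these shares were 18.7% (lymphoma alone), 0.712% (healthy alone) and 10.2% (both). With 6 or 7 markers per set, nothing on cell makeup is read from the marker counts. The part of cell makeup in the HOXD peaks was not tested.

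In both fractions the HOXD cluster held more peaks in lymphoma than in healthy cells. The lymphoma M-H list had 14 peaks there and the healthy M-H list 1; the lymphoma L list had 10 and the healthy L list 4. The lymphoma M-H peaks covered 10.0% of the interval and the healthy M-H peak 0.645%, against 5.87% for lymphoma L and 2.33% for healthy L. Peaks that shared at least 1 bp between lists formed 18 places. Of these, 14 were seen in lymphoma lists only (5 in both fractions, 7 in M-H and 2 in L), 1 was seen in healthy L only, and 3 were seen in both groups. The peak in the coding sequence of HOXD1 was the single place found in all 4 lists.

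Of the 14 lymphoma M-H peaks, 13 overlapped no healthy M-H peak, where 48.8% of all lymphoma M-H peaks did so (50.5% of those flagged as CpG island or shore). Of the 10 lymphoma L peaks, 7 overlapped no healthy L peak, where 36.9% of all lymphoma L peaks did so (53.2% of island and shore peaks). In the opposite direction, 1 of the 4 healthy L peaks overlapped no lymphoma L peak (35.2% of the list), and the healthy M-H peak did overlap a lymphoma M-H peak (9.58% of the list did not). With peaks under a fold enrichment of 8 removed, the cluster kept 8 lymphoma M-H peaks and 1 healthy M-H peak, but 4 lymphoma L and 4 healthy L peaks. The lymphoma M-H list was also the longer one: cut by fold to the 19867 peaks of healthy M-H, it kept 6 peaks in the cluster, 5 of them without a healthy overlap, against 1 healthy M-H peak. In L, equal list lengths kept 10 lymphoma and 4 healthy peaks, and the excess there rests on peaks below a fold of 8. That fold lies below the lymphoma L median of 8.92 and above the healthy L median of 7.77.

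The healthy peaks, 4 in L and 1 in M-H, all lay from 19949674 on. The stretch of 53.5 kb from the 5' edge to the first healthy peak holds the starts of HOXD13, HOXD12, HOXD10, HOXD9 and HOXD8. It contained 5 lymphoma L and 9 lymphoma M-H peaks, and 0 peaks of either healthy list. The remaining 50.7 kb, with HOXD3 and HOXD1, contained 5 lymphoma L and 4 healthy L peaks, and 5 lymphoma M-H and 1 healthy M-H peaks. This division was drawn at the first healthy peak after the peaks were seen and is a description. The 0 healthy peaks before the border therefore follow from where it was set.

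Promoter peaks were those that overlapped the 1 kb on either side of a transcription start, which was worked out from the authors' distances. In M-H, 5 of the 7 genes (HOXD12, HOXD10, HOXD9, HOXD8 and HOXD3) were lymphoma-only (a promoter peak in that group and not in the other), 0 were healthy-only and HOXD1 was shared. Among 18111 genes, 18.7% were lymphoma-only and 0.712% healthy-only in M-H. Genes without any assigned peak are in neither count. HOXD13, HOXD12, HOXD10, HOXD9 and HOXD8 had assigned peaks in lymphoma lists only and entered the 7 through them. In L, 2 of the 7 (HOXD9 and HOXD8) were lymphoma-only, 0 were healthy-only and 2, HOXD3 and HOXD1, were shared, against 16.0% lymphoma-only and 3.87% healthy-only genes overall. HOXD13 had no promoter peak in any list by this window. With a window of 2 kb upstream to 500 bp downstream, HOXD13 became lymphoma-only in both fractions. With peaks under a fold of 8 removed, the lymphoma-only genes were HOXD10, HOXD9 and HOXD3 in M-H and HOXD9 in L, and HOXD3 became healthy-only in L.

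HOXD13, which shapes the digits and the genital tubercle, starts at 19901185. Its upstream peak was found in both lymphoma lists and in neither healthy list. In lymphoma L it lay at 19899267 to 19899984 with a fold of 8.45, and in lymphoma M-H at 19899305 to 19900019 with 12.6. These peaks ended 1201 and 1166 bp before the start, just outside the 1 kb window, and both carried the authors' flags for promoter and CpG island shore. The nearest healthy L peak was 44589 bp from the HOXD13 start and the nearest healthy M-H peak 94210 bp.

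HOXD12, a limb gene with a start at 19907425, had peaks in lymphoma M-H only. A peak at 19904862 to 19905444 had a fold of 7.72 and carried the shore and promoter flags. Another at 19907387 to 19908133, in a CpG island and across the transcription start, had 6.41, close to the lowest value deposited and higher than 7.92% of the lymphoma M-H list. The nearest lymphoma L peak was 7441 bp away, and the nearest healthy peaks were 42249 bp (L) and 87970 bp (M-H) away.

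HOXD10, which patterns the limb and its motor neurons and whose mRNA is a target of the microRNA miR-10b in human breast cancer cells, starts at 19924353. In lymphoma M-H a peak of 989 bp at 19923650 to 19924638 spanned that start, with a fold of 10.1 at the middle of the list (rank 17461 of 34939). No other list had a peak within 5 kb of the HOXD10 start. The nearest lymphoma L peak lay 5123 bp from the start and the nearest healthy L peak 25321 bp from it.

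HOXD9, a gene of the limb and spinal cord with its start at 19929480, had a peak across the start in both lymphoma lists. Its fold was 9.40 in lymphoma L (19929476 to 19929953) and 12.7 in lymphoma M-H (19929463 to 19930001), above the list median in each case. A neighbouring place, 19931208 to 19931662, was again peaked in both lymphoma lists, with folds of 6.28 in L and 7.37 in M-H. The authors assigned it to the coding sequence of HOXD9 in L and to the downstream side of HOXD10 in M-H, so counts by gene symbol split 1 place between 2 genes. Neither healthy list had a peak within 20 kb of the HOXD9 start (20194 bp in L and 65915 bp in M-H).

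HOXD8, whose start at 19938917 closes the run without healthy peaks, had an upstream shore peak in both lymphoma lists. The folds were 7.69 in L (19937499 to 19938384) and 7.68 in M-H (19937577 to 19938516), below the list medians of 8.92 and 10.1. Lymphoma M-H had a further peak in a CpG island, at 19936572 to 19937169, with 8.10. The nearest healthy L peak to the HOXD8 start was 10757 bp away.

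Between HOXD8 and HOXD3 lie the upstream peaks of LOC102157027. A CpG island peak at 19949674 to 19950220 had a fold of 12.7 in healthy L, the highest of the 4 healthy L values of the cluster and above 94.5% of that list. The same place had 7.87 in lymphoma L, rank 29205 of 45623, and no M-H peak. Lymphoma L had a second peak at 19947585 to 19948119 with 6.11, and lymphoma M-H one at 19945699 to 19946130 with 9.49.

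HOXD3, which in cultured human cells raises integrin expression and adhesion, starts at 19961394 and had the most peaks of the 7 genes: 2 in lymphoma L and 2 in healthy L, and 4 in lymphoma M-H and 0 in healthy M-H. Its upstream shore peak was shared between groups in L, with 6.99 in lymphoma (percentile 21.9) and 9.02 in healthy cells (percentile 69.7). In M-H the peak was present in lymphoma (11.5, percentile 60.1) and not in healthy cells. An intronic peak at 19973855 to 19974337 was found in both lymphoma lists, with 6.98 in L and 8.57 in M-H, and was flagged as shore in L and as island in M-H. Lymphoma M-H alone had long island peaks of 1378 bp in the 5' untranslated region (6.21) and of 1234 bp in coding sequence (7.37). Healthy L alone had a peak of 410 bp in coding sequence at 19976850 to 19977259 (8.10), the single peak of the cluster outside islands and shores.

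HOXD1, which directs the wiring of pain-sensing neurons in mice, starts at 19995327 and was methylated in both groups. Its coding-sequence peak had 8.66 in lymphoma L and 9.83 in healthy L, and 14.1 in lymphoma M-H and 11.5 in healthy M-H. Within its list each value stood at percentile 47.1 (lymphoma L), 78.2 (healthy L), 75.2 (lymphoma M-H) and 85.4 (healthy M-H). Lymphoma L had a further upstream peak at 19993876 to 19994475 with 10.4, which no other list had. The coding-sequence peaks started 3 to 180 bp past the transcription start and carried no promoter flag, whereas the upstream lymphoma L peak did. By the authors' flag alone, HOXD1 would therefore have a promoter peak in lymphoma L only.

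**Figure D1:**
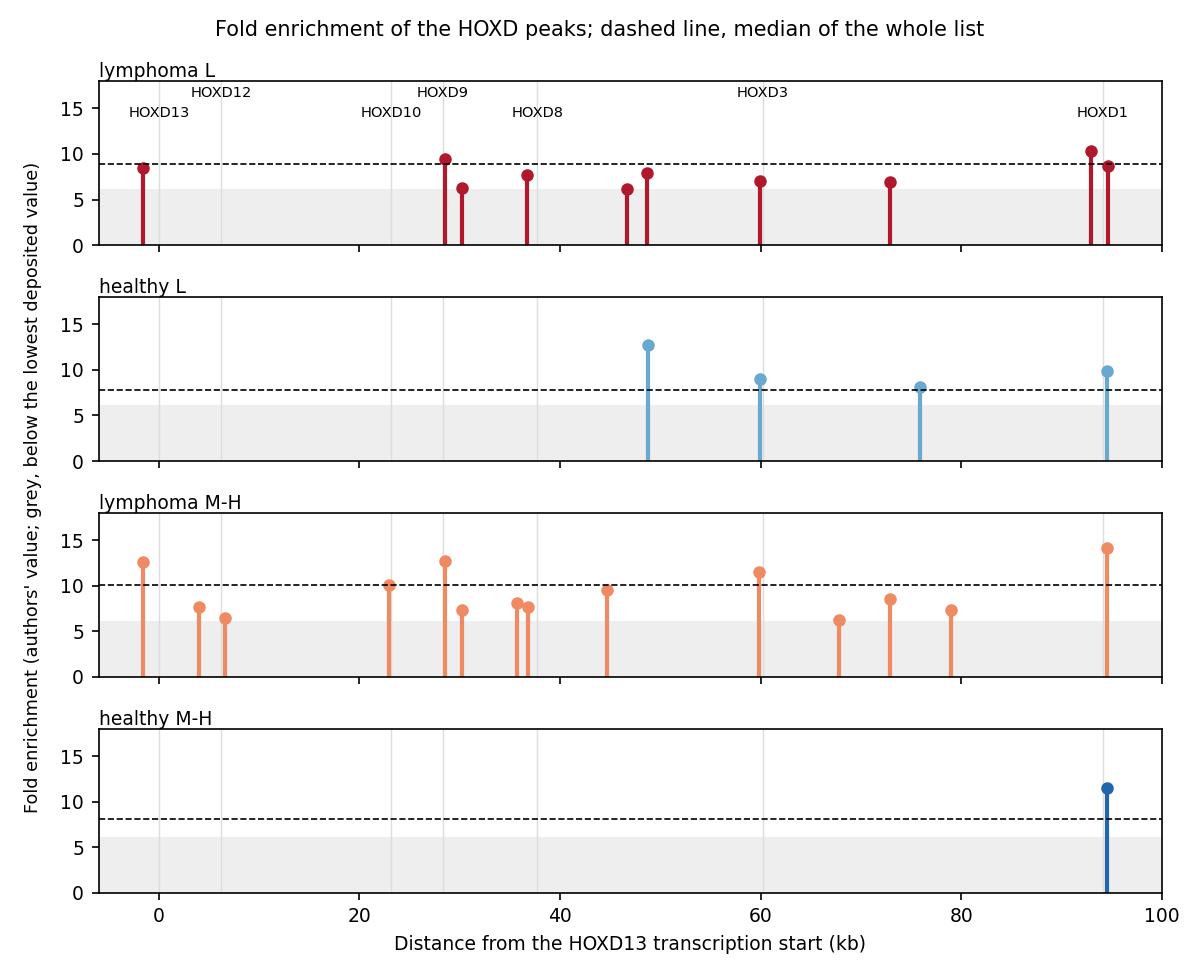
Fold enrichment of each HOXD peak, the authors' value, against the distance from the HOXD13 transcription start in kb, 1 panel per list; dashed lines are list medians and vertical grey lines gene starts. In lymphoma M-H 5 of 14 peaks, led by HOXD1 (14.1), HOXD9 (12.7) and HOXD13 (12.6), exceeded the median, as did 2 of 10 in lymphoma L, 4 of 4 in healthy L and 1 of 1 in healthy M-H.

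The lymphoma peaks of the cluster were thus numerous but mostly of ordinary height for their lists. The median fold was 7.78 in lymphoma L and 9.42 in healthy L over the cluster, against list medians of 8.92 and 7.77. In lymphoma M-H it was 8.33, against a list median of 10.1, and the healthy M-H peak had 11.5, against 8.14. Fold values rank peaks within a list and are not compared between lists.

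Island flags were the feature that the peaks shared beyond position. Of the 29 peaks, 21 were flagged as CpG island shore, 7 as CpG island and 1 as neither. In lymphoma M-H all 14 carried an island or shore flag (5 island, 9 shore), where 54.3% of the whole list did; in lymphoma L all 10 did (1 island, 9 shore), where 36.3% of the list did. In healthy L 3 of 4 did, where 20.7% of the list did, and in healthy M-H 1 of 1, where 50.8% of the list did. The promoter flag was on 9 of 14 lymphoma M-H and 0 of 1 healthy M-H peaks, and on 6 of 10 lymphoma L and 1 of 4 healthy L peaks. None of the 29 carried the enhancer flag, which 3.32% to 4.68% of the peaks of the lists had.

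Within lymphoma, the fractions overlapped in part. Of the 14 M-H peaks, 7 overlapped no L peak, where 17.9% of all lymphoma M-H peaks did so (26.4% of island and shore peaks). They were both HOXD12 peaks, the HOXD10 start, the island peak of HOXD8, the LOC102157027 peak and the 2 long island peaks of HOXD3. Of the 5 island peaks of lymphoma M-H in the cluster, 4 were among these 7. In reverse, 3 of the 10 lymphoma L peaks overlapped no M-H peak, where 36.8% of the list did so. Within healthy cells the M-H peak overlapped an L peak (36.7% of the list did not), and 3 of 4 L peaks overlapped no M-H peak, where 71.6% of the list did so.

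The windows beside the cluster held fewer lymphoma peaks. In the 8 neighbouring windows of the same length, 4 on each side, lymphoma M-H had 11 peaks in all (0 to 4 per window) and healthy M-H 5 (0 to 3). Lymphoma L had 18 (0 to 5) and healthy L 25 (2 to 7), so that in L the healthy list had more peaks around the cluster and the lymphoma list more inside it. None of the measured neighbours of the cluster was lymphoma-only or healthy-only. LNPK, which shapes the endoplasmic reticulum, carried a shared promoter peak in L and none in M-H, and MTX2, HNRNPA3 and NFE2L2 had none in any list.

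**Figure D2:**
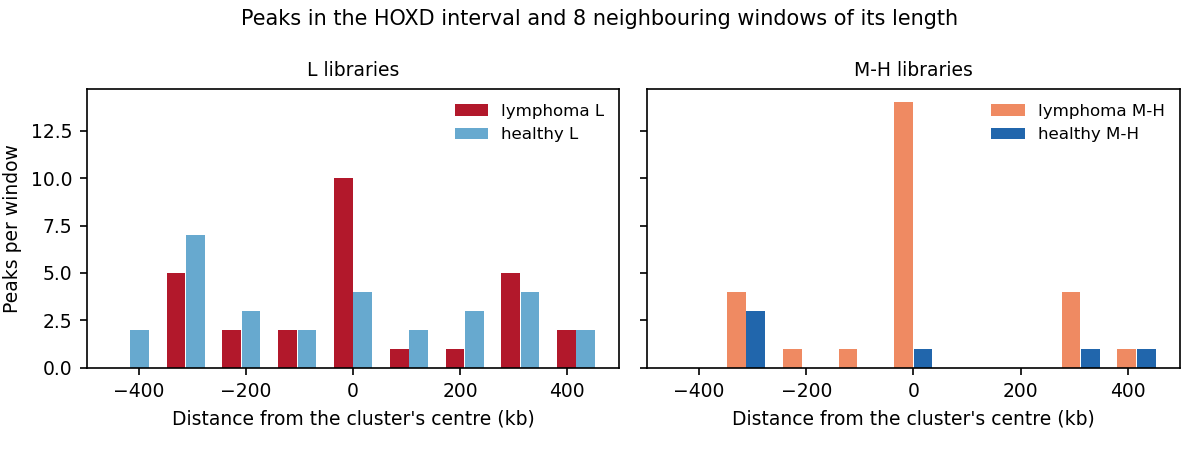
Number of peaks in the HOXD interval (distance 0) and in 4 windows of its length on each side, by distance from the centre of the cluster in kb, for L and M-H libraries. In M-H the interval has 14 lymphoma peaks and 1 healthy peak, while no neighbouring window has more than 4.

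Windows of the same length over all chromosomes were counted to see how common such a density was. Of 22365 windows, 0 had as many lymphoma M-H peaks as the cluster (mean 1.56, highest 13), 0.572% had at least 10 lymphoma L peaks, 20.2% at least 4 healthy L peaks and 48.5% at least 1 healthy M-H peak. A difference of at least 13 between lymphoma and healthy peaks was found in 0.0% of windows in M-H (highest 10), and one of at least 6 in 0.662% in L. The windows were not matched to the cluster for CpG islands or genes, and 8326 of them had no M-H peak in either group. Fixed windows can also divide a dense stretch, whereas the interval was placed on the cluster. When a stretch was opened at every lymphoma M-H peak instead, 9 stretches elsewhere, in 4 places, held at least 14 lymphoma peaks. Those 9 held 5 to 12 healthy M-H peaks, and 0 stretches elsewhere had 13 more lymphoma than healthy peaks (highest of the 9, 9).

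The windows most like the cluster in all 4 counts were then taken, by Euclidean distance of log2(peaks + 1). The nearest, at a distance of 0.551, lay on chromosome 9 at 8539645 to 8643786, with 10 lymphoma L and 3 healthy L, 10 lymphoma M-H and 1 healthy M-H peaks and no named protein-coding gene assigned. The second, at 0.728, lay on chromosome 14 at 40302955 to 40407096 and held HOXA4, HOXA9, HOXA11 and HOXA13, with 8 and 3 peaks in L and 9 and 1 in M-H (lymphoma and healthy). The other three carried MNX1, a homeobox gene of motor neurons and pancreas, and NOM1 (0.748), MFNG, a modifier of Notch (0.75), and SNAI1, a repressor of epithelial genes, with RNF114 (0.792). A short distance says only that the counts are alike over the 4 lists.

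**Figure D3:**
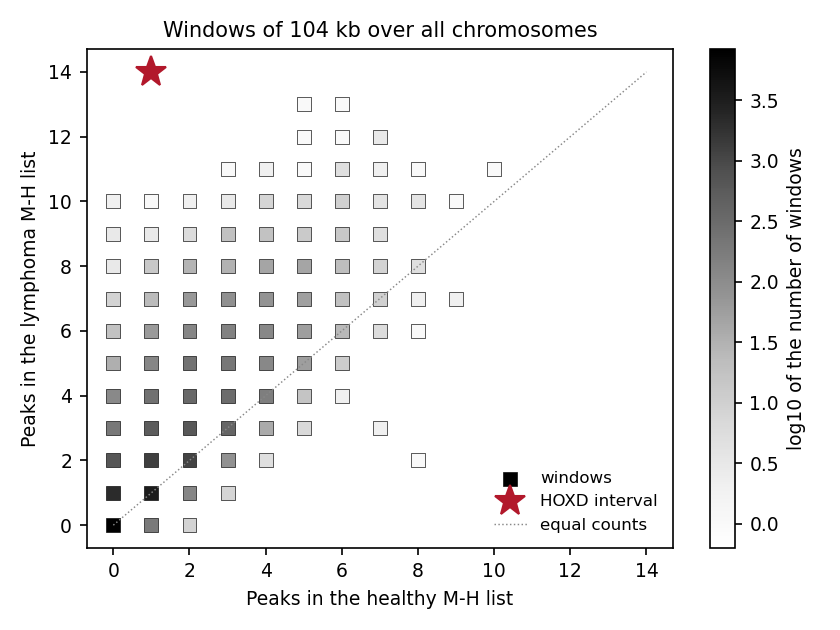
Peaks in the lymphoma M-H list against peaks in the healthy M-H list for 22365 windows of the length of the HOXD interval; each square is a pair of counts, shaded by the log10 of the number of windows that have it, the dotted line marks equal counts and the star is the HOXD interval. The star, at 14 and 1, lies above all 22365, of which the highest has 13 lymphoma peaks.

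The other HOX clusters showed the same direction with other densities. In M-H the HOXD cluster had 13.4 lymphoma and 0.96 healthy peaks per 100 kb, HOXC 11.5 and 0.0, HOXB 9.66 and 3.41, and HOXA 8.85 and 1.77. In L the values were 9.60 and 3.84 for HOXD, 9.10 and 5.12 for HOXB, 5.77 and 2.31 for HOXC and 5.31 and 2.65 for HOXA. The lymphoma M-H peaks without a healthy M-H overlap were 13 of 14 in HOXD, 10 of 10 in HOXC, 8 of 10 in HOXA and 12 of 17 in HOXB. HOXC thus had a higher share than HOXD, and differences between clusters were not tested. Of 30 HOX genes listed outside HOXD, 21 were measured. Over these 21, M-H had 11 lymphoma-only, 0 healthy-only and 2 shared promoters, and L had 5, 2 and 4. The lymphoma-only shares were 52.4% in M-H and 23.8% in L, against 18.7% and 16.0% of all genes. The healthy-only shares were 0.0% in M-H and 9.52% in L, against 0.712% and 3.87% of all genes.

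**Figure D4:**
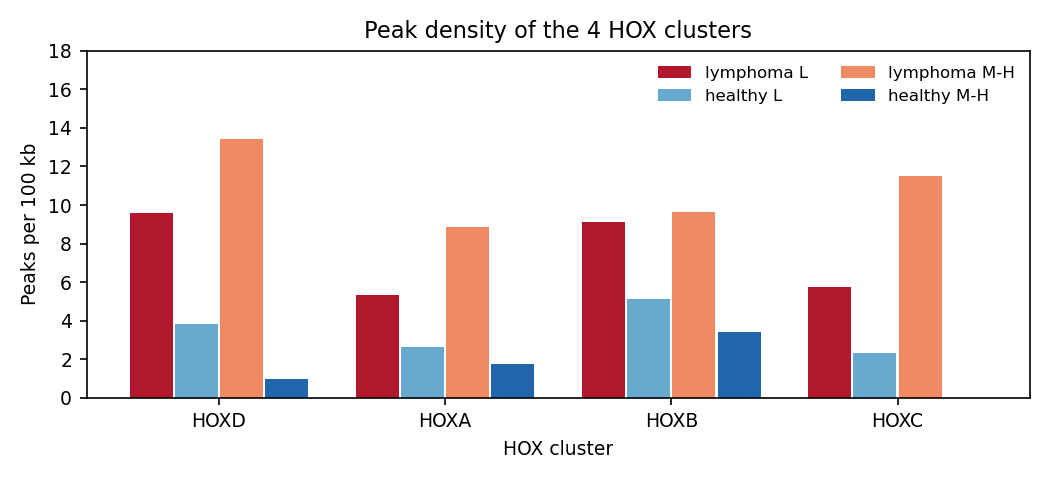
Peaks per 100 kb in the 4 HOX clusters, each from the lowest to the highest transcription start of its measured genes plus 5 kb on each side; bars are the 4 lists. Lymphoma M-H is the tallest bar of every cluster, at 13.4 for HOXD, and healthy M-H the lowest, at 0.96 for HOXD and 0.0 for HOXC.

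Paralogues, the genes of the same number in other clusters, descend from 1 ancestral gene. HOXD9 was lymphoma-only in both fractions, while HOXA9 was so in M-H alone (6.38). HOXD8 and HOXB8 were lymphoma-only in both fractions, with lymphoma folds of 7.69 and 6.36 in L and of 7.68 and 7.54 in M-H. HOXD3 and HOXB3 were both shared between groups in L and lymphoma-only in M-H, where they had 11.5 and 11.1; HOXA3 had no promoter peak. HOXD1 was shared in both fractions, whereas HOXB1 had no promoter peak. By the 1 kb window HOXD13 lacked a promoter peak, but HOXA13 and HOXB13 were lymphoma-only in both fractions and HOXC13 in M-H. With the window of 2 kb upstream to 500 bp downstream, HOXD13 was lymphoma-only in both fractions too. HOXC12 was healthy-only in L (7.78) and lymphoma-only in M-H (8.38).

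Polycomb proteins hold HOX clusters silent and Trithorax proteins keep them active, and the promoters of their genes were counted in the same way. Of 31 listed Polycomb genes, 22 were measured. Over these 22, L had 3 lymphoma-only, 2 healthy-only and 1 shared, and M-H 4, 1 and 0. PHC2, a subunit of Polycomb repressive complex 1, had 9.60 in lymphoma L and 16.5 in lymphoma M-H, and PCGF2, another subunit, 10.1 and 10.3; neither had a healthy peak. PCGF5 (lymphoma L, 7.88) and PHF19 (lymphoma M-H, 6.14) were lymphoma-only in 1 fraction. RBBP7, a histone-binding subunit on chromosome X, was healthy-only in both fractions. It had 6.54 in L and 6.84 in M-H, below the healthy list medians of 7.77 and 8.14. The catalytic subunits EZH1 and EZH2 had no promoter peak in any list. Of 8 measured Trithorax genes, KMT2A, a methyltransferase that keeps HOX genes active, was the single one with a promoter peak, in lymphoma L (10.8). The lymphoma-only shares of the Polycomb genes were 13.6% in L and 18.2% in M-H, against 16.0% and 18.7% of all genes. Their healthy-only shares were 9.09% in L (2 genes) and 4.55% in M-H (1 gene), against 3.87% and 0.712% of all genes; with so few genes nothing is read from these shares.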

How the data were processed

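Methylated DNA of lymph node aspirates or blood mononuclear cells was captured and sequenced as paired ends, per the labels' protocols. The submitters' processing notes list BWA, MACS2 and the build CanFam3.1; versions and settings are not given in the sources used here. The authors deposited 1 pooled peak list per group and fraction, with a fold enrichment (a ratio to an unstated background), an assigned gene, its distance and flags per peak. Read depth and values per dog are not given, so no precision could be computed.

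Peak starts were read as 0-based and are printed 1-based. Gene columns were shifted, and were emptied, in 4 rows of lymphoma L, 2 of healthy L and 3 of lymphoma M-H; of 54 symbols turned into dates 51 were restored from the description; 0 of these lay in the cluster. Transcription starts came from peak start and distance, with 1 start for 18111 of 18147 genes. Overlap meant at least 1 bp. Biotypes came from a RefSeq table (UU_Cfam_GSD_1.0). Python 3.11.15, pandas 2.3.3 and numpy 2.4.6 were used, and promoter calls were tested on simulated peaks. The overlap step was checked only for finding planted shared peaks, not for false overlaps. The start step was checked only by inverting its own formula, which could not fail. No statistical test was run. Alternatives were other promoter windows, overlaps, interval borders, a fold of at least 8 and equal list lengths.

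The members and gene lists were chosen with earlier results of these data known. All 7 HOXD genes and all peaks of the interval are named, with the measured neighbours, up to 4 one-group genes per list and fraction by fold, and the 5 most similar windows; HOX paralogues, silent list members, and the split of the cluster at the first healthy peak were chosen after their values were seen. Some genes of these lists are not reported here. No sequence is shown, since no genome of this build was used here.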

Additional observations from a re-analysis of the deposited data

How the results depend on the processing

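Of the alternatives to counts in the HOXD cluster, 33 stayed within 1.5 times the reported count and 12 did not. Removing peaks under a fold enrichment of 8 left 4 lymphoma L peaks, 3 of them without a healthy overlap, and 8 lymphoma M-H peaks, 7 without overlap. It left 1 lymphoma-only and 1 healthy-only gene in L and 3 lymphoma-only genes in M-H. Equal list lengths, which cut lymphoma M-H at a fold of 9.32, left 6 lymphoma M-H peaks, 5 without overlap, and 3 lymphoma-only genes. Promoters of 500 bp either side left 1 lymphoma-only gene in L. Stretches opened at each lymphoma M-H peak, an alternative chosen after seeing the data, gave 9 elsewhere with at least 14 peaks, against 0 fixed windows. The losses under the fold and list length rules follow from the peaks removed. With promoters of 500 bp no peak was removed. The lymphoma L peak of HOXD8, 533 bp from the start, fell outside that window. No count turned to more healthy than lymphoma peaks under these settings, and in L a fold of at least 8 gave 4 each. No paired analysis was possible because the lists hold no values per dog, and for the same reason no dog could be left out. A fold below 6 and the depth behind each peak cannot be seen in these lists.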

Other observations

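Outside the cluster, an intergenic CpG island shore peak on its HOXD13 side was found in both lymphoma lists, at 19874247 to 19875537 with a fold of 9.06 in L and at 19874183 to 19875371 with 13.8 in M-H, about 20 kb from the interval (20647 and 20813 bp), and in neither healthy list. On the HOXD1 side, an intronic peak of the non-coding RNA gene LOC111094192 was found in both groups in L, with 7.39 in lymphoma and 11.4 in healthy cells. The 4 places elsewhere with at least 14 lymphoma M-H peaks within the length of the HOXD interval were 2 on chromosome 2, 1 on chromosome X at TBL1X and 1 on chromosome 9 from HOXB1 to HOXB8. The stretch from HOXB2 on, 24803381 to 24907522, had 14 lymphoma M-H and 5 healthy M-H peaks, the largest difference of the 9 stretches.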
